A study of Mus musculus with 6 samples.

Results

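Skeletal muscle genes were followed in RNAseq libraries of the mouse proximal tibial epiphysis. The set held 38 contractile, calcium-handling and metabolic genes named by symbol, and the 35 with a mean normalized count of at least 20 over the 6 libraries are the genes described here, out of 47729 in the deposited table. The rule uses the mean over all libraries and not the difference between the lines. Just below the limit lay *Myh3* with a mean of 19.9, then *Tnnc2* with 15.7 and *Myh7* with 13.6, and just above it lay *Myl2* with 22.01.

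The comparison was between Longshanks 1 (LS1), a line selectively bred for long tibiae relative to body mass, and Control, a random-bred ICR line kept beside it. Both groups were 14 days old and consisted of 3 mice each, and the labels give no treatment. Each library came from both proximal epiphyses of 1 mouse, so a library holds RNA of joint cartilage, of the growth plate, and of the bone with its marrow on either side of it. The labels name the tissue as bone, cartilage and marrow, and do not name muscle. Chondrocyte genes were abundant in every library, with 165204 to 275139 normalized counts of *Acan*, the main cartilage proteoglycan. The 35 muscle genes together summed to 11181 to 44766 normalized counts, or 0.0143% to 0.0579% of a library.

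Skeletal muscle fibres shorten as myosin heavy chains (Myh genes) pull on actin filaments, and the troponins and calcium release channels switch this on and off. Fast fibres use other isoforms of myosin, troponin and calcium pump than slow fibres, and developing fibres express embryonic and perinatal myosins before the adult ones. Myoglobin (*Mb*) stores oxygen and is richest in oxidative fibres and in heart, while creatine kinase and enolase supply energy. Muscle and its tendons insert close to the proximal tibia.

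The promoters of 3 of the genes are shown because they stand for the actin filament (*Acta1*), the fast myosin filament (*Myh4*) and oxygen storage (*Mb*), the gene with the lowest p-value of the set. Each run is the 250 bases before a RefSeq transcription start on GRCm38.p6, written from 5′ to 3′ on the gene's own strand. *Acta1* is taken from chr8:123894776-123895025 on the minus strand and *Myh4* from chr11:67237562-67237811 on the plus strand. *Mb* is taken from chr15:77022788-77023037 on the minus strand and is 1 of 3 windows that RefSeq gives for the gene. Capitals mark matches to CAGCTG (an E-box bound by myogenic factors), to TATAAA, to the MEF2 motif and to the CArG box bound by serum response factor.
*Acta1*: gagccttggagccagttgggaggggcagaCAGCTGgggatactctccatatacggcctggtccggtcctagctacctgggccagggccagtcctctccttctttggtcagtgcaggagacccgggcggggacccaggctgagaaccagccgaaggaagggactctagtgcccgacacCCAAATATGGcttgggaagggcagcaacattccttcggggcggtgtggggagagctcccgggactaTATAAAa
*Myh4*: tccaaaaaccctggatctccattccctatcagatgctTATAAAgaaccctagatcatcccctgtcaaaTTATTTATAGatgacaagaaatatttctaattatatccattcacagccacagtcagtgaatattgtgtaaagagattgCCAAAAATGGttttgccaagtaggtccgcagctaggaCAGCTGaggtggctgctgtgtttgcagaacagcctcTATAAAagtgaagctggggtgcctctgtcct
*Mb*: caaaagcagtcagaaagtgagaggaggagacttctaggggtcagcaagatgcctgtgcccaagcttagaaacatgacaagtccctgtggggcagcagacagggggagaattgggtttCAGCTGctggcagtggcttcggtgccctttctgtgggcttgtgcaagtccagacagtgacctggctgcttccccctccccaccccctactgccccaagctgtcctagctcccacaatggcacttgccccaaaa

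In *Acta1* the TATAAA match ended 2 bases before the start, the CArG box began 73 bases before it and CAGCTG began 221 bases before it. *Myh4* held 3 TATAAA matches, of which the middle one overlaps its MEF2 match, and its CAGCTG began 67 bases before the start. In *Mb* the sole match was CAGCTG, which began 133 bases before the start. These positions are counted from the RefSeq starts that the windows border. The GENCODE gene starts differ, at 123894751 for *Acta1* and 67238029 for *Myh4*, so distances from those starts would be other ones. Promoter windows of 300 bases, 50 of them after the start, were found for 27 of the 35 genes, and both strands were searched. CAGCTG was present in 15 of 27 genes (55.6%), against 18.3% of all 27025 genes with a window. TATAAA was present in 8 (29.6%, against 15.7%), the MEF2 motif in 5 (18.5%, against 3.70%) and the CArG box in 4 (14.8%, against 1.81%). A match describes the letters of a window and not binding. *Myoz1*, *Myot*, *Actn3*, *Trdn*, *Tnnt3*, *Tnni2*, *Neb* and *Tcap* had no entry.

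The authors' values are read counts divided by a size factor for each library, called normalized counts here. The libraries held 68803249 to 76581954 reads in Control and 82227711 to 88745366 in LS1. On the first principal component of all tested genes LS1 replicate 3 lay at -4.3, while the other LS1 libraries lay at 43.7 and 50.1 and Control between -41.5 and -22.1. LS1 replicate 3 was not the library in which the muscle genes stood apart. Differences are given as log2 fold changes of LS1 over Control on log2(normalized count + 1), with standard errors (SE) and p-values of limma, adjusted by the Benjamini-Hochberg method over 19308 tested genes. Each library is 1 mouse, so the p-values measure the spread among these mice. In whole epiphyses, fewer muscle cells and less RNA per muscle cell cannot be told apart.

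**Figure D1:**
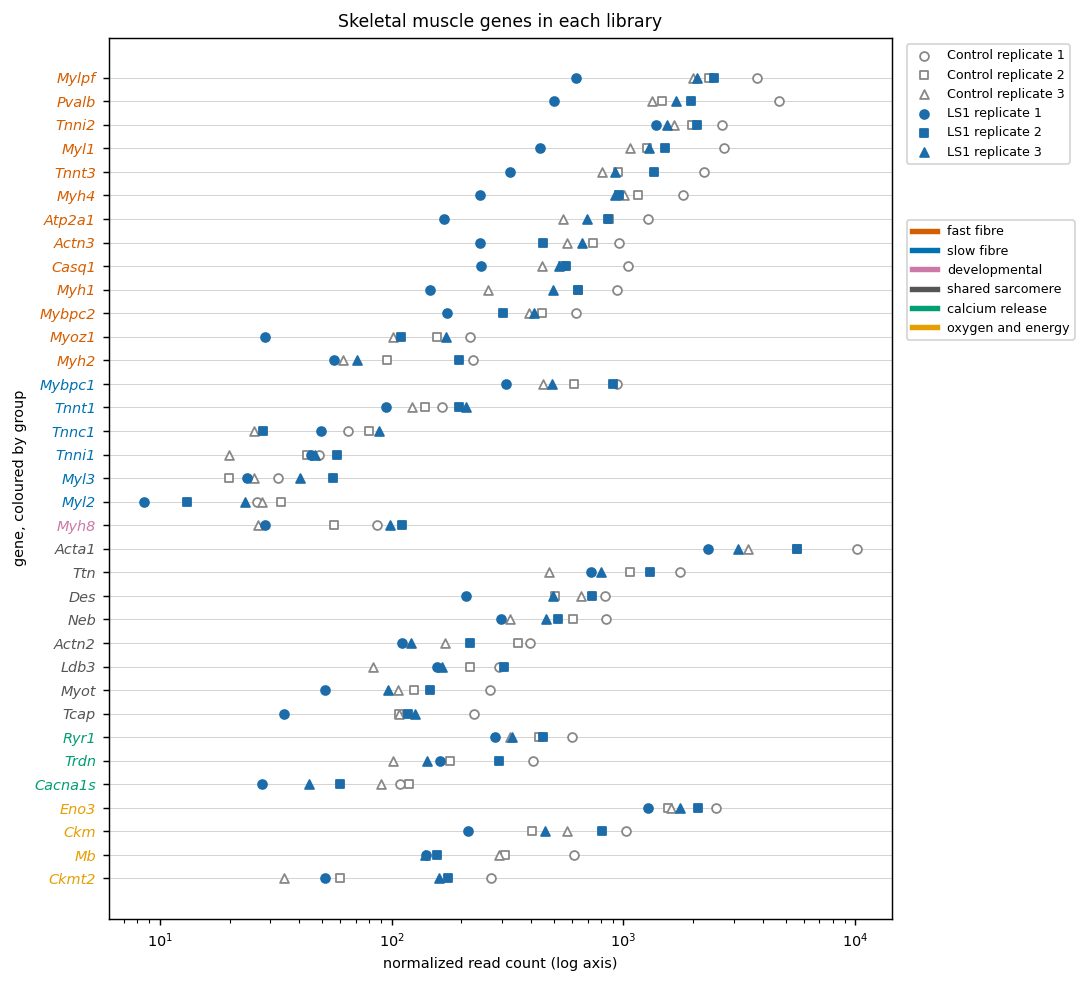
Normalized counts of the 35 muscle genes (horizontal log axis) in each of the 6 libraries, with genes grouped by role and ordered by mean within a group. Open grey symbols are Control, filled blue symbols are LS1. Control replicate 1 (open circle) is highest in 27 genes and LS1 replicate 1 (filled circle) is lowest in 26.

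Levels between genes were compared per kilobase of exon. *Acta1*, the actin of skeletal thin filaments, had the highest mean level, with 3284 normalized counts per kilobase. *Mylpf*, the regulatory light chain of fast myosin, followed with 2081, then *Pvalb*, the calcium buffer of fast fibres, with 1857 and *Tnni2*, the fast inhibitory troponin, with 1256. The 13 fast-fibre genes thus filled 3 of the first 4 places. The highest slow-fibre gene was *Mybpc1* with 136.4 normalized counts per kilobase, and the other slow genes ran from 11.3 (*Myl2*) to 70.1 (*Tnnt1*). *Myh8*, the perinatal myosin, was lowest with 5.76. These gaps are large against the spread of a gene over libraries, in which the highest library was 1.92 times (*Tnni2*) to 9.27 times (*Pvalb*) the lowest, but neighbours in the order lie within it.

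The muscle genes varied widely among the mice of a line. *Acta1* had 10150.4, 5605 and 3458 normalized counts in Control replicates 1 to 3 and 2324, 5603 and 3125 in LS1 replicates 1 to 3. Control replicate 1 was the highest of all, LS1 replicate 1 the lowest, and the other libraries overlapped. *Pvalb* showed the same order of extremes, with 4663, 1469 and 1326 in Control and 503, 1953 and 1685 in LS1. Over the 35 genes Control replicate 1 was highest in 27, where it was highest in 13.0% of all tested genes. LS1 replicate 1 was lowest in 26 of 35, where it was lowest in 26.8% of all tested genes. Control replicate 3 was lowest in 7 more. The spread within a group, as an SD on the log2 scale, had a median of 0.73 over the muscle genes (0.33 to 1.28), against 0.25 over all tested genes.

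Relative to the Control mean on the log2 scale, the median muscle gene lay at 0.59, -0.057 and -0.52 in the Control libraries. It lay at -1.39, 0.0078 and -0.28 in the LS1 libraries. LS1 replicates 2 and 3 were therefore inside the range of Control and LS1 replicate 1 was outside it. The sample titles of Control replicate 1 and LS1 replicate 1 share the letter A, as those of the other libraries share B or C between the lines. The labels do not say what the letter stands for, and the cause of these levels was not tested.

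**Figure D2:**
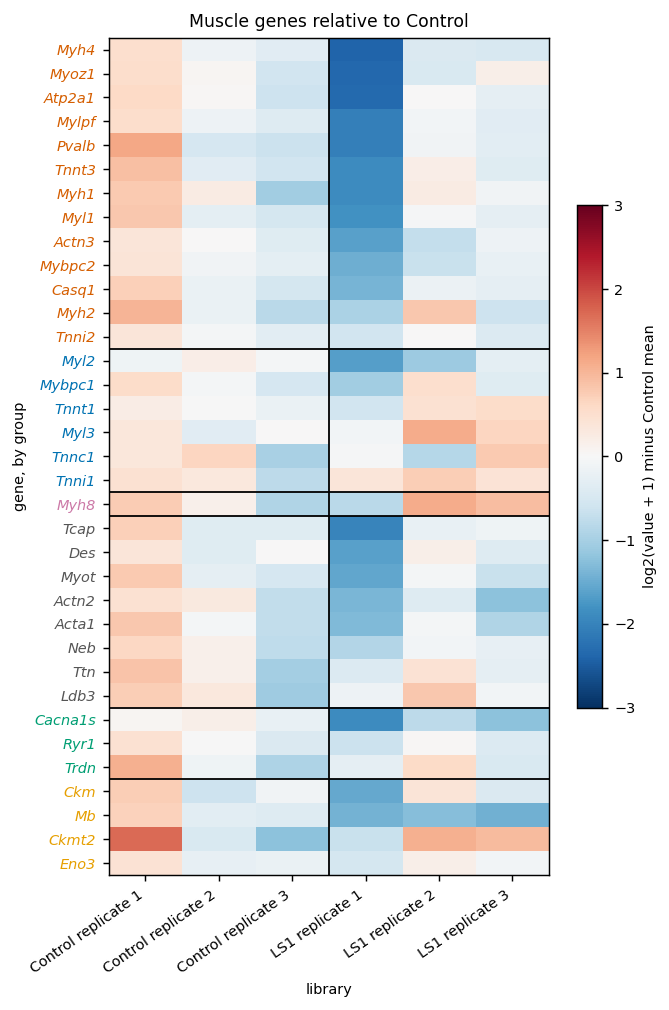
Log2(normalized count + 1) of each muscle gene (rows, grouped by role) minus its Control mean, for the 6 libraries (columns), from blue (below) to red (above). The column of LS1 replicate 1 is blue in most genes (median -1.39) and that of Control replicate 1 red (median 0.59). *Mb* and *Cacna1s* are among the genes that are blue in all 3 LS1 libraries.

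With limma, 0 of the 35 muscle genes had an adjusted p-value under 0.05, where 14 of all tested genes did (0.0725%). Before adjustment 5 muscle genes had a p-value under 0.05 and were lower in LS1 (5.86% of all tested genes), and 0 were higher at that limit (7.08% of all tested genes). These 5 were *Mb*, *Cacna1s*, *Actn2*, *Actn3* and *Mybpc2*. With edgeR on the recovered reads 0 muscle genes passed the adjusted threshold, where 7 of all tested genes did (0.0363%), and the same 5 genes were lower at an unadjusted p under 0.05 (5.9% of all tested genes). With DESeq2 on the recovered reads 1 passed, *Mb*, where 2.38% of all tested genes passed and 0.943% passed in its direction, and again these 5 were lower at an unadjusted p under 0.05 (6.19% of all tested genes). The groups were apart, with LS1 below Control, in 4 of the 35 genes, *Mb*, *Cacna1s*, *Myh4* and *Myl2*, the last of which met the rule's limit only through Control (8.94% of all tested genes). LS1 was wholly above Control in 0 genes (10.3% of all tested genes).

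The log2 fold change was below 0 in 29 of the 35 genes, where it was below 0 in 49.3% of all tested genes. Its median was -0.61, against 0.0054 over all tested genes. Leaving out Control replicate 1 and LS1 replicate 1 together was tried after the values were seen. They were mostly the highest Control and the lowest LS1 library for these genes, so in those genes their removal moves the fold change upward by construction. The median over the muscle genes was then 0.16 and 9 of the 35 lay below 0, where 47.4% of all tested genes did. Without LS1 replicate 1 alone the median was -0.14, and without Control replicate 1 alone it was -0.23.

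**Figure D3:**
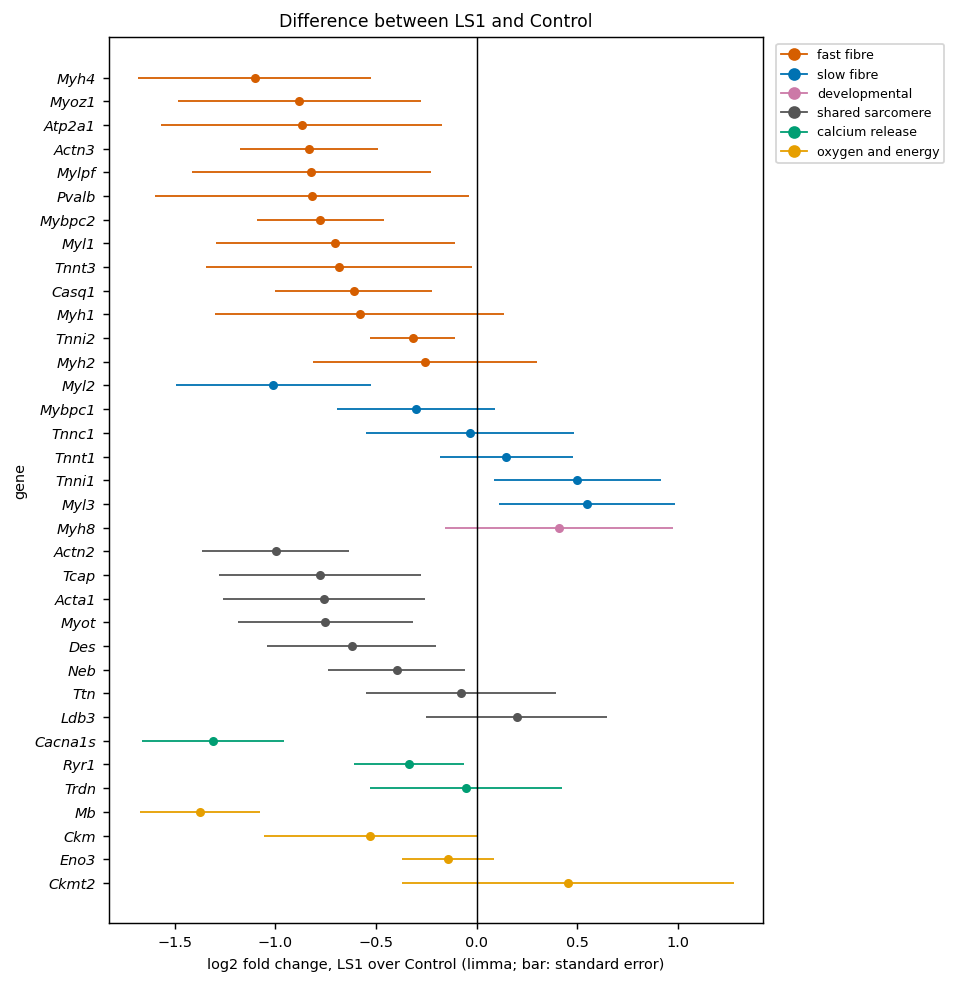
Log2 fold change of LS1 over Control (horizontal axis) for each muscle gene, with 3 mice in each group. Points are the limma estimates, bars the standard errors and colours the roles. The 13 fast-fibre genes lie between -1.10 and -0.26, the 6 slow-fibre genes between -1.01 and 0.55, and *Mb* lies lowest at -1.38.

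All 13 fast-fibre genes that met the rule had a log2 fold change below 0, with a median of -0.78, and 0 passed the adjusted threshold. *Myh4*, the heavy chain of the fastest (IIb) fibres, lies on chromosome 11 of GRCm38 from 67238029 to 67260446 on the plus strand. It had 1801, 1160 and 1003 normalized counts in Control and 240.0, 952 and 923 in LS1. No LS1 mouse reached the lowest Control mouse, but LS1 replicates 2 and 3 were below the lowest of them by less than the spread within Control. This gave a log2 fold change of -1.10 (SE 0.58, limma adjusted p = 0.483), and without Control replicate 1 and LS1 replicate 1 together it was -0.20. *Actn3*, the fast-fibre actinin of the Z-disc, had 955, 742 and 572 normalized counts in Control and 240.0, 449 and 664 in LS1. Its log2 fold change was -0.83 (SE 0.34, limma adjusted p = 0.345), and LS1 replicate 3 lay within the range of Control. *Mybpc2*, the fast myosin-binding protein, had a log2 fold change of -0.78 (SE 0.31, limma adjusted p = 0.335), with LS1 replicate 3 at 409.5 against 391.5 to 623.6 in Control.

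The other fast-fibre genes ran from -0.88 for *Myoz1*, a Z-disc protein that binds calcineurin, to -0.26 for *Myh2*, the heavy chain of IIa fibres. *Atp2a1*, the fast calcium pump of the sarcoplasmic reticulum, stood at -0.87 and *Casq1*, the calcium store inside it, at -0.61. *Atp2a1* shares 21.94% of its exon bases with *Rabep2* on the opposite strand. *Rabep2* had a mean of 1303 normalized counts against 736 for *Atp2a1*, and its part was not tested. *Tnni2* had the narrowest spread, with 2653, 1970.0 and 1648 normalized counts in Control and 1381, 2078 and 1547 in LS1, and its log2 fold change was -0.32 (SE 0.21). In LS1 replicate 1 the median fast-fibre gene lay at -1.88 relative to the Control mean on the log2 scale, while in LS1 replicates 2 and 3 it lay at -0.074 and -0.28. Without Control replicate 1 and LS1 replicate 1 together, 4 of the 13 fast-fibre genes were below 0 and their median was 0.14. *Tnnc2*, the fast calcium-binding troponin, was under the limit with 5 to 46 reads in a library, and 74.0% of its exon bases are also exon bases of *Ube2c*.

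The 6 slow-fibre genes that met the rule did not share a direction, with 3 below 0, 3 above 0 and a median of 0.057. *Myl3*, the essential light chain of slow and ventricular myosin, had 32.3, 19.96 and 25.4 normalized counts in Control and 23.8, 55.7 and 40.1 in LS1. *Tnni1*, the slow inhibitory troponin, had 48.4, 43.2 and 19.9 in Control and 44.8, 58.3 and 46.6 in LS1. The groups overlapped in both genes, and their log2 fold changes were 0.55 (SE 0.44) and 0.50 (SE 0.41), with adjusted p-values of 0.623 and 0.639 from limma. *Tnnt1*, the slow troponin that binds tropomyosin, stood at 0.15, *Tnnc1*, the slow and cardiac calcium-binding troponin, at -0.034 and *Mybpc1*, the slow myosin-binding protein, at -0.30.

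*Myl2*, the regulatory light chain of slow and ventricular myosin, was the exception among the slow genes. It had 26.2, 33.3 and 27.7 normalized counts in Control and 8.57, 13.1 and 23.3 in LS1, so the groups did not overlap. *Myl2* met the limit of 20 through its Control mean of 29.1, as its LS1 mean was 14.98, so the rule favoured a lower level in LS1 and its lack of overlap is a description only. Its log2 fold change was -1.01 (SE 0.48, limma adjusted p = 0.409). The slow heavy chain *Myh7* had 33, 12 and 5 reads in Control and 6, 13 and 13 in LS1, too few for a comparison. Without Control replicate 1 and LS1 replicate 1 together, *Myl2* was the only 1 of the 6 slow-fibre genes below 0 and the median was 0.48.

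The developmental myosins were scarce. *Myh8* had 86.8, 56.5 and 26.6 normalized counts in Control and 28.6, 110.5 and 97.9 in LS1. LS1 replicate 1 was again low, the groups overlapped, and the log2 fold change was 0.41 (SE 0.57, limma adjusted p = 0.796). Without Control replicate 1 and LS1 replicate 1 together it was 1.4 (SE 0.46, limma unadjusted p = 0.0143 and adjusted p = 0.358). These were the highest Control and the lowest LS1 library for *Myh8*, so their removal raises its fold change by construction and is no test of it. The embryonic *Myh3* had 24, 26 and 8 reads in Control and 4, 53 and 8 in LS1, with LS1 replicate 2 the highest.

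Because the total of muscle RNA differed between libraries, the isoforms were also compared within a library. The 6 myosin heavy chains were expressed as percent of their summed level per kilobase. *Myh4* made up 60.7%, 60.7% and 75.5% in the Control mice and 53.6%, 52.0% and 60.8% in the LS1 mice. The means were 65.6% ± 8.53 (SD, n = 3) and 55.5% ± 4.69 (SD, n = 3), and the groups overlapped at their edge (exact permutation test, two-sided p = 0.3). *Myh1*, the heavy chain of IIx fibres, had a mean share of 26.7% ± 7.03 (SD, n = 3) among Control mice and 31.6% ± 1.24 (SD, n = 3) among LS1 mice, with overlap (exact permutation test, p = 0.3). *Myh2* made up 4.84% ± 1.35 (SD, n = 3) and 7.83% ± 3.47 (SD, n = 3), and *Myh3* and *Myh7* at most 2.5% in any library.

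With lengths from all exons, *Myh8* was the 1 heavy chain whose share did not overlap between the lines. It was 1.49%, 1.51% and 1.02% in the Control mice and 3.26%, 3.08% and 3.29% in the LS1 mice. The exact permutation test gave a two-sided p of 0.1, the smallest that 3 mice against 3 allow, and 0.45 when adjusted over the 6 heavy chains. LS1 replicate 1, lowest in most muscle genes, had a share like the other LS1 libraries. With the length of the longest transcript in place of all exons the shares were higher, 1.91% to 2.79% in Control and 5.57% to 5.99% in LS1, and still did not overlap. With that length the *Myh4* shares did not overlap either, at 58.3%, 58.6% and 73.6% in Control and 50.3%, 49.0% and 57.7% in LS1. *Myh1*, *Myh2*, *Myh3*, *Myh4* and *Myh8* lie side by side on chromosome 11 and are close in sequence, so reads can be counted on a neighbour.

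**Figure D4:**
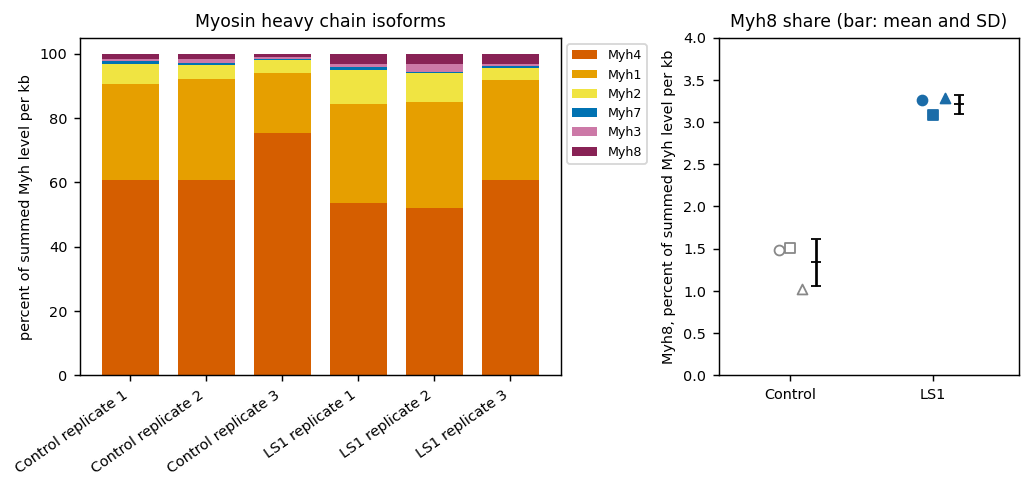
Left, share of each myosin heavy chain in the summed level per kilobase (percent, stacked to 100) for the 6 libraries. Right, the *Myh8* share by line, with points for mice and bars for the mean and SD: the 3 LS1 mice sit between 3.08% and 3.29% and the 3 Control mice between 1.02% and 1.51%.

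Slow and fast partners of the same protein were compared as log2 ratios in each library, in 8 pairs, with *Mb* over *Ckm* as the ninth comparison. Among the pairs, *Actn2* over *Actn3* sets the actinin shared by fast and slow fibres against the fast one. In *Tnni1* over *Tnni2* the ratio was -5.75, -5.48 and -6.30 in Control and -4.92, -5.13 and -5.02 in LS1, a difference of 0.82 with no overlap. In *Myl3* over *Myl1* it was -6.35, -5.91 and -5.33 in Control and -4.15, -4.73 and -4.97 in LS1, a difference of 1.25 with no overlap. In both pairs the slow gene stood closer to its fast partner in each LS1 mouse than in any Control mouse. The exact permutation test gave a two-sided p of 0.1 for each, the smallest possible, and 0.45 when adjusted over the 9 ratios. Both slow genes had few reads, with 19.96 to 55.7 normalized counts of *Myl3* and 19.9 to 58.3 of *Tnni1*. *Myl3* also shares 4.65% of its exon bases with *Pth1r* on the opposite strand, which had a mean of 26399, and its part was not tested. *Myl3* over *Myl1* was lowest in Control replicate 1 and highest in LS1 replicate 1, the libraries with the most and the least muscle RNA. In LS1 replicate 1 *Tnni1* and *Tnni2* lay at 0.36 and -0.57 relative to the Control mean on the log2 scale. The medians of slow-fibre and fast-fibre genes there were -0.34 and -1.88, so neither gene was as low as its group. Whether reads from outside muscle entered this ratio was not tested.

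The other pairs overlapped. *Tnnt1* over *Tnnt3* differed by 0.83 and *Mybpc1* over *Mybpc2* by 0.47 (exact permutation test, p = 0.3 for each). *Myh7* over *Myh4* differed by 0.58 (exact p = 0.4) and *Tnnc1* over *Tnnc2* by 0.35 (exact p = 0.7), both with few reads of 1 partner. *Myl2* over *Mylpf* differed by -0.19 (exact p = 0.7) and *Actn2* over *Actn3* by -0.17 (exact p = 0.9).

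**Figure D5:**
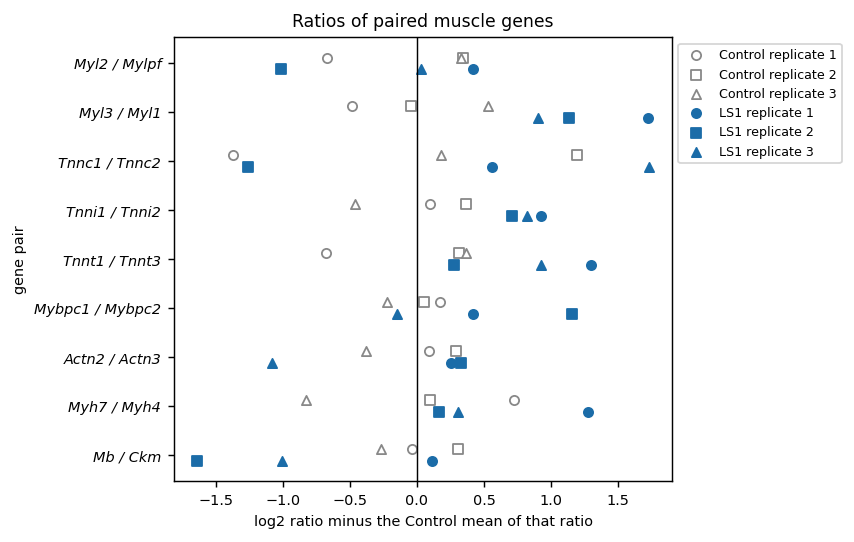
Log2 ratio of the first to the second gene of each pair, minus the Control mean of that ratio (horizontal axis), with open symbols for Control and filled for LS1 libraries. The LS1 libraries lie above all Control libraries in *Myl3* over *Myl1* and *Tnni1* over *Tnni2*, and LS1 replicates 2 and 3 lie below Control in *Mb* over *Ckm*.

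*Mb* (ENSMUSG00000018893) lies on chromosome 15 of GRCm38 from 77015487 to 77050670 on the minus strand. It had 614.5, 307.1 and 290.9 normalized counts in Control and 140.9, 157.5 and 139.9 in LS1. Each LS1 mouse had less than the lowest Control mouse, and the LS1 mice were close together, with a Control mean of 404 ± 182 (SD, n = 3) and an LS1 mean of 146.1 ± 9.88 (SD, n = 3). The log2 fold change of -1.38 (SE 0.30) had an unadjusted p of 0.000737 and an adjusted p of 0.159 in limma, and DESeq2 gave a log2 fold change of -1.48 (DESeq2 adjusted p = 0.000573). Unlike most of the set, *Mb* kept its difference without Control replicate 1 and LS1 replicate 1, at -1.005 (SE 0.28, limma adjusted p = 0.280). The paper also lists *Mb* as lower in LS1 by RNAseq. By qPCR of dissected growth plates from mice of a later generation, it reported no significant difference of *Mb* between LS1 and Control.

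The pattern of *Mb* over libraries differed from the median of the other muscle genes. Its level relative to the Control mean, less the median of the 34 other genes, was 0.12, -0.25 and 0.14 on the log2 scale in Control. In LS1 it was -0.045, -1.28 and -1.16. In LS1 replicate 1 *Mb* was thus about as low as that median, and in the other LS1 mice it was lower. *Cacna1s* was also low in each LS1 mouse, at -1.89, -0.80 and -1.24 relative to the Control mean. Outside the set, 4 of 41 other striated muscle genes tested had LS1 wholly below Control (8.94% of all tested genes). These were *Actc1*, *Art1*, *Cox7a1* and *Cox8b*, with log2 fold changes of -1.14, -0.98, -0.65 and -1.105. In *Cox8b* the LS1 mice were also close together, at 40.95, 41.77 and 37.31 normalized counts, against 175.6, 66.52 and 56.41 in Control. *Mb* over *Ckm*, the muscle creatine kinase, had a log2 ratio of -0.74, -0.40 and -0.97 in Control and -0.59, -2.35 and -1.71 in LS1. LS1 replicate 1 lay within Control, and the difference of -0.85 had an exact permutation p of 0.3.

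Exon bases of *Mb* overlap other annotated genes for 31.9% of their length, among them *Apol6* on the opposite strand. Whether reads were counted by strand is not given in the sources used here. *Apol6* had 278.5, 314.8 and 426.9 normalized counts in Control and 522.8, 3052 and 404.8 in LS1, and its part in the counts of *Mb* was not tested. LS1 replicates 2 and 3, the libraries with the highest and the lowest *Apol6* in LS1, had 157.5 and 139.9 normalized counts of *Mb*.

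The 3 other energy genes of the set did not show the pattern of *Mb*. *Ckm* stood at -0.53 (SE 0.53) and *Eno3*, the muscle enolase of glycolysis, at -0.14 (SE 0.23). *Ckmt2*, the mitochondrial creatine kinase of sarcomeric muscle, had 269.4, 59.9 and 34.3 normalized counts in Control and 51.4, 174.9 and 160.4 in LS1. Its log2 fold change was 0.45 with a standard error of 0.82, the largest of the 35 genes, and without Control replicate 1 and LS1 replicate 1 together it was 1.86 (SE 0.39, limma adjusted p = 0.182). These were the highest Control and the lowest LS1 library for *Ckmt2* too, so this rise is also by construction.

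Of the 3 genes that couple the membrane signal to calcium release, *Cacna1s* had the lowest p-value of the set after *Mb*. It encodes the voltage sensor of the transverse tubule and lies on chromosome 1 from 136052750 to 136119822 on the plus strand. It had 109.0, 118.6 and 89.6 normalized counts in Control and 27.6, 60.1 and 43.8 in LS1. The groups did not overlap, with means of 105.7 ± 14.8 (SD, n = 3) and 43.8 ± 16.2 (SD, n = 3). The log2 fold change was -1.31 (SE 0.35, limma unadjusted p = 0.00344 and adjusted p = 0.222), and -0.99 without Control replicate 1 and LS1 replicate 1 (limma adjusted p = 0.414). A further gene, *Gm37759*, covers 19.98% of its exon bases. *Ryr1*, the release channel it opens, stood at -0.33 (SE 0.27), and *Trdn*, which anchors calsequestrin to that channel, at -0.053 (SE 0.48).

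In 7 of the 8 sarcomere genes shared by fast and slow fibres the log2 fold change was below 0, with a median of -0.69. *Actn2*, the actinin of all striated Z-discs, had 394.5, 351.4 and 170.3 normalized counts in Control and 110.5, 218.4 and 121.3 in LS1. LS1 replicate 2 lay above Control replicate 3, so the groups overlapped, and the log2 fold change was -0.999 (SE 0.36, limma adjusted p = 0.302). *Tcap*, the cap of titin, stood at -0.78, *Acta1* at -0.76, the Z-disc protein *Myot* at -0.75 and desmin (*Des*) at -0.62. The giant filament genes were nearer to 0, with *Neb* at -0.40 and *Ttn* at -0.078. *Ldb3*, another Z-disc gene, stood at 0.20. Without Control replicate 1 and LS1 replicate 1 together, 2 of these 8 genes were below 0 and the median was 0.11.

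Other striated muscle genes had a median nearer to 0, at -0.18. Of 46 such genes outside the set, 41 were tested. The log2 fold change was below 0 in 28 of them (49.3% of all tested genes). With limma 0 passed the adjusted threshold (0.0725% of all tested genes). At an unadjusted limma p-value under 0.05, 5 were lower (5.86% of all tested genes) and 1 was higher (7.08%). LS1 was wholly below Control in 4 (8.94% of all tested genes) and wholly above it in 2 (10.3%). The most abundant were *Myom1*, an M-band protein, at -0.044, *Myl4*, the light chain of atrial and embryonic muscle, at -0.73 and *Srl*, a protein of the sarcoplasmic reticulum, at -0.18. *Myl4* had 2192, 1755 and 2235 normalized counts in Control and 921, 1009 and 2019 in LS1. In *Myl4* Control replicate 1 was not the highest, and LS1 replicates 1 and 2 were the low libraries. The highest library was 1.62 times (*Myom1*), 2.43 times (*Myl4*) and 1.46 times (*Srl*) the lowest, against 1.92 to 9.27 times in the set. Whether other tissues of the epiphysis gave part of these reads was not tested, so the median of this list may not describe muscle alone.

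Of 17 myogenic regulators and satellite cell genes 4 had a mean of at least 20 reads, all below 0 with a median of -0.28. Genes of neighbouring tissues had other medians. Of 6 tendon and ligament genes 5 were above 0, with a median of 0.51, and their summed normalized counts were 54827 to 62456 in Control and 61737 to 79908 in LS1. These sums were mostly *Fmod*, with means of 54414 and 65030, so they say little of the other genes in the list. All 10 chondrocyte genes were above 0, with a median of 0.56 and sums of 2455004 to 2824057 in Control and 3270339 to 3727110 in LS1. Of 6 haematopoietic genes 4 were above 0, with a median of 0.049. Their sums of 1077282 to 1348999 in Control and 631561 to 637158 in LS1 were mostly the globin *Hbb-bs*, with means of 1165568 and 600322. The 8 smooth muscle genes had a median of -0.10, with sums of 13858 to 16069 in Control and 12908 to 16163 in LS1. In these 4 lists no tested gene was at 0 in any library. The part of these tissues in the muscle values was not tested.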

How the data were processed

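RNAseq values of 3 Control and 3 LS1 libraries were used, grouped by the strain label. The authors aligned reads with HISAT2 2.0.2 (GRCm38) and assigned them to the genes of Ensembl release 84 with featureCounts 1.4.6. The values they deposited are a signal, since each read count had been divided by the size factor of its library. No column was left unused (0). Reads were recovered by division by the value of 1 read (0.870 to 1.11), and 100% of values came out whole within 0.01. In Control replicate 1 this value was close to 1, at 1.009, and 100% of its values came out whole after the division. The depth was 68803249 to 88745366 reads.

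Genes with a mean of at least 20 reads were compared on log2(value + 1) by limma 3.58.1 (R 4.3.3), with trended and robust variance moderation and a threshold of 0.05. Ratios and shares were tested with exact permutation tests over libraries. Alternatives were edgeR 4.0.16, DESeq2 1.42.0, voom, TMM factors, other pseudocounts and filters, no trend, a replicate block, transcript length and libraries left out. The scripts were tested on simulated data. Names and coordinates come from GENCODE M21. Genes were named from the 38 symbols, genes overlapping them, and up to the 3 most abundant of every other list. Exceptions were *Acan*, as a tissue check, and the other striated muscle genes with LS1 wholly below Control. Members and lists were chosen with earlier results of these data known.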

Additional observations from a re-analysis of the deposited data

How the results depend on the processing

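The log2 fold changes of *Mb* and *Cacna1s* stayed below 0 in every setting that could be fitted, at -1.57 to -1.005 for *Mb* (adjusted p 0.000573 to 0.37) and -1.57 to -0.99 for *Cacna1s* (adjusted p 0.0558 to 0.526). *Cacna1s* was not fitted with a minimum of 100 reads. DESeq2 called 1 muscle gene, *Mb* (-1.48, adjusted p = 0.000573 from DESeq2), and limma and edgeR 0. With each library left out in turn 0 were called, and 2 to 10 were lower at an unadjusted p-value under 0.05: 2 without Control replicate 1 (4.07% of all tested genes) or LS1 replicate 1 (5.62%), 3 without Control replicate 2 (3.76%) and 10 without LS1 replicate 2 (5.09%). *Ckmt2* was higher at that limit without Control replicate 1. The replicate block gave 3 (7.67%). The titles share a letter, A, B or C, between the lines for each number, with no meaning given in the labels. Same-numbered libraries deviated together with correlations of 0.054, 0.021 and 0.224, and differently numbered ones with -0.147 to 0.116. As the former are not all over 0.1, the main fit did not take them as pairs. With 3 libraries in each group these correlations cannot exclude pairing. The median ran from -0.89 to -0.14 and the number below 0 from 23 to 32.

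Leaving out Control replicate 1 and LS1 replicate 1 together, chosen after seeing the data, left 2 genes lower at an unadjusted p-value under 0.05 (*Mb* and *Cacna1s*, 4.59% of all tested genes) and 2 higher (*Myh8* and *Ckmt2*, 6.01%), a median of 0.16 and 9 genes below 0. In *Myh8* and *Ckmt2* the libraries left out were the highest Control and the lowest LS1, so their rise is by construction. The log2 fold change then turned above 0 in 20 genes, at 0.46 for *Myh1*, 0.61 for *Myh2*, 0.068 for *Mylpf*, 0.26 for *Myl1*, 0.36 for *Tnnt3*, 0.12 for *Myoz1*, 0.16 for *Atp2a1*, 0.14 for *Casq1*, 0.38 for *Pvalb*, 0.14 for *Tnnc1*, 0.34 for *Mybpc1*, 0.34 for *Ckm*, 0.27 for *Eno3*, 0.063 for *Des*, 0.043 for *Myot*, 0.15 for *Neb*, 0.18 for *Tcap*, 0.52 for *Ttn*, 0.048 for *Ryr1* and 0.59 for *Trdn*. With 1 library left out the direction turned in 11 genes, which ran from -0.17 to 1.30 for *Ckmt2*, -0.30 to 0.080 for *Eno3*, -0.33 to 0.57 for *Ldb3*, -0.70 to 0.064 for *Mybpc1*, -1.10 to 0.067 for *Myh1*, -0.79 to 0.26 for *Myh2*, -0.046 to 1.02 for *Myh8*, -0.52 to 0.37 for *Tnnc1*, -0.058 to 0.51 for *Tnnt1*, -0.52 to 0.48 for *Trdn* and -0.58 to 0.35 for *Ttn*. Among the ratios it turned in *Actn2* over *Actn3* (-0.41 to 0.29), *Myl2* over *Mylpf* (-0.53 to 0.22) and *Tnnc1* over *Tnnc2* (-0.35 to 1.15). Without overlap were 2 to 3 ratios and 1 to 3 heavy chain shares with a library left out, and 2 shares with the longest transcript, where *Myh4* was added to *Myh8*. With all libraries, LS1 was wholly below Control in 8.94% and wholly above it in 10.3% of all tested genes. A lack of overlap is easier to reach with a library left out, so these counts do not measure how stable a ratio or share is. The cause of the changes in direction was not tested beyond the libraries left out.

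*Myh3*, *Myh7* and *Tnnc2* had 4 to 53 reads in a library, which limits their precision. With 3 mice in each group an exact test cannot go below p = 0.1.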
